A study of Homo sapiens with 6 samples.

Results

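The urokinase plasminogen activator system was examined in MDA-MB-231, a human triple-negative breast cancer cell line. Its 7 listed genes, chosen by name, are the proteases PLAU and PLAT, the receptor PLAUR, the serpins SERPINE2, SERPINB2 and SERPINB5, and the uptake receptor LRP1. Of these, 6 were found in a table of 25706 genes, and all 6 passed the filter on low counts that 15951 genes passed. SERPINB5, a serpin known as maspin, was not analysed here. Messenger RNA selected with oligo(dT) was sequenced in 6 libraries, 3 from cells overexpressing tsRNA-Gly-5-0006 and 3 from control cells. This small RNA is derived from a glycine tRNA, and its own level is not read by such libraries. Neither the content of the control cells nor the means of overexpression is labelled. They do not say whether replicates were separate cultures, so p-values may measure only technical spread.

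Urokinase, the product of PLAU, is a secreted serine protease that cuts plasminogen into the active protease plasmin. It can do so while bound to its receptor PLAUR, which is held in the cell membrane by a lipid anchor, and plasmin then degrades fibrin and matrix. Inhibitory serpins trap the activators as inactive complexes, which LRP1 takes into the cell. The system is known in breast cancer for its link to invasion. The comparison asks whether overexpression of the tRNA fragment is accompanied by a change in these messenger RNAs.

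PLAU, PLAUR and PLAT were well expressed and SERPINE2, LRP1 and SERPINB2 were scarce. None of the 6 genes passed the test between the groups. Overexpression library 1 held 3.57 times the mean SERPINE2 level and 3.24 times the mean LRP1 level of the other 5. Without it, the estimates for both genes were negative and did not pass the test. For PLAU and PLAUR the estimate was smaller than its standard error in either case.

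The deposited counts summed to between 54371226 and 74586916 per library. Of the 10 markers of MDA-MB-231 cells, all were in the table. VIM, the mesenchymal intermediate filament, had 365 to 460 FPKM, while ZEB1, a mesenchymal transcription factor, had 0.0816 to 0.372. Epithelial markers were mixed, with CDH1, the epithelial cadherin, at 0 to 0.0424 FPKM and the keratin KRT19 at 1895 to 2505. FPKM is a count scaled to gene length and library size, and the length behind these values is described below. Overexpression 1 stood apart: the 11 fibroblast markers in the table summed to 14.3 FPKM there and to 0.871 to 1.32 in the other 5 libraries. Each of the 11 was highest in that library, and COL3A1, DCN and FAP were listed at 0 in the other 5. Of the 10 markers of MDA-MB-231 cells, 7 were also highest in that library, against 30.9% of tested genes. ZEB1 had 0.372 FPKM there and 0.0816 to 0.173 in the other 5. The sum of the 10 (6553 FPKM against 5649 to 6589) did not set that library apart. The sums of 8 luminal or epithelial markers (2352 against 2047 to 2662 FPKM) and of 9 leukocyte and endothelial markers (16.4 against 14.7 to 18.8) did not set that library apart, but KRT19 made up 2206 FPKM of the first and CD14 14.5 FPKM of the second. PTPRC and CDH5, which define leukocytes and endothelium, were listed at 0 in the other 5 libraries. In overexpression 1 they had 0.00549 and 0.00740 FPKM, from deposited counts of 7 and 4. They were the only 2 of these 9 that were highest in that library. KDR went the other way, listed at 0 there and at 0.0334 to 0.0641 FPKM in the other 5. Results that rest on overexpression 1 are given with and without it.

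Stretches upstream of the RefSeq transcript starts (GRCh38.p14) are shown for the abundant protease and receptor and for the 3 scarce genes that were highest in overexpression 1. They are written 5′ to 3′ on the gene's strand. Capitals mark matches on either strand to 3 motifs that do not overlap here: TGANTCA of AP-1, GGGCGG of SP1 and TATAAA of the TATA box.
PLAU (chr10:73911075-73911104, plus strand, 57 to 28 bases before the second start): agggagGGGCGGcgccgGGGCGGgccctga
PLAUR (chr19:43670337-43670366, minus strand, 197 to 168 bases before the start): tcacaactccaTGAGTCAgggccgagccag
SERPINE2 (chr2:224031479-224031728, minus strand, 250 bases before the first start): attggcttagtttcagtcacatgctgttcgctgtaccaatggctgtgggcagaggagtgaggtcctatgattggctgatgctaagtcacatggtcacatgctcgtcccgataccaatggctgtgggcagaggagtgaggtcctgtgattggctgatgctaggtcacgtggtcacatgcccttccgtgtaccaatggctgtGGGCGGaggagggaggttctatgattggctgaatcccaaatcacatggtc
LRP1 (chr12:57128233-57128482, plus strand, 250 bases before the start): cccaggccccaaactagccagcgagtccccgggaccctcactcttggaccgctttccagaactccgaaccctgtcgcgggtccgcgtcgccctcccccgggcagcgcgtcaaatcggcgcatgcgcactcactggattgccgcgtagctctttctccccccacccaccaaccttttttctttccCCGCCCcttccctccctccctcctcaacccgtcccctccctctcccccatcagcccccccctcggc
SERPINB2 (chr18:63887455-63887699, plus strand, 250 to 6 bases before the start): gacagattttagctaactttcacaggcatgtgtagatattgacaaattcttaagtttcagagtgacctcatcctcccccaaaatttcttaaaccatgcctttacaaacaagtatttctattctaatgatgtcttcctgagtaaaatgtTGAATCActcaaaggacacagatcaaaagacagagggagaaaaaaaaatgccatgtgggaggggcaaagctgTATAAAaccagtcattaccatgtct
Windows of 250 bases were available for 5 of the genes, PLAU and SERPINE2 having 2 starts each. The second PLAU window, from which the stretch above was taken, held 3 SP1 matches, 66, 51 and 40 bases before the start, of which the last 2 are shown. The first held no match to any of the 3 motifs. The AP-1 match of PLAUR began 186 bases before its start. SERPINB2 had an AP-1 match 102 bases and a TATA match 30 bases before its start. LRP1 had 1 SP1 match and the SERPINE2 windows 1 and 2. Among 35116 windows of that length, 6.57% held the AP-1 letters, 42.6% the SP1 letters and 10.7% the TATA letters. The PLAU and PLAUR stretches lie wholly in annotated exons. For PLAU, SERPINE2 and SERPINB2, the starts of the printed stretches lie inside the gene spans given below, not at their outer ends. Such matches are descriptions of letters, not of bound sites.

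PLAU (ENSG00000122861, hg38 chromosome 10, 73909177 to 73917494) was the most abundant of the 6 genes in the deposited FPKM. Control 1, 2 and 3 had 91.6, 87.5 and 77.3 FPKM, and the overexpressing libraries, in the same order, had 79.9, 108 and 68.1. The overexpressing libraries enclosed the controls, with the highest and the lowest value of all 6. Means were 85.5 ± 7.37 and 85.3 ± 20.5 FPKM (SD, n = 3 each), and the mean level exceeded that of 96.0% of tested genes. The log2 fold change of overexpression over control was -0.06 (SE 0.14, unadjusted p 0.691 by edgeR), and 0.00 (SE 0.15) without overexpression 1. The 95% interval of the fold ran from 0.767 to 1.20. C10orf55, which overlaps PLAU on the opposite strand, had 71 to 128 counts against 15776 to 20399 for PLAU.

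PLAUR (ENSG00000011422, chromosome 19, 43646095 to 43670169), the urokinase receptor, varied least. It had 35.9, 35.7 and 33.6 FPKM in control and 31.3, 39.5 and 34.4 in overexpressing libraries. As for PLAU, overexpression 2 was highest, while overexpression 1 was lowest. The highest library was 1.26 times the lowest, against 1.59 times for PLAU and 1.72 times for PLAT. Means were 35.1 ± 1.22 and 35.1 ± 4.17 FPKM (SD, n = 3 each). By edgeR the log2 fold change was -0.04 with an SE of 0.10 (unadjusted p 0.686), or 0.05 (SE 0.09) without overexpression 1, and the 95% interval of the fold was 0.822 to 1.15.

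PLAT (ENSG00000104368, chromosome 8, 42174718 to 42207709) encodes tissue-type plasminogen activator, which cuts plasminogen mainly when bound to fibrin. Control libraries had 15.0, 13.3 and 9.54 FPKM and overexpressing libraries 12.6, 13.8 and 8.74. The groups overlapped, and replicate 3 was lowest in both. Means were 12.6 ± 2.79 and 11.7 ± 2.65 FPKM (SD, n = 3 each), a log2 fold change of -0.16 (SE 0.18, unadjusted p 0.406 by edgeR). Without overexpression 1 it was -0.20 (SE 0.20), and the 95% interval of the fold with all libraries was 0.668 to 1.20.

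**Figure D1:**
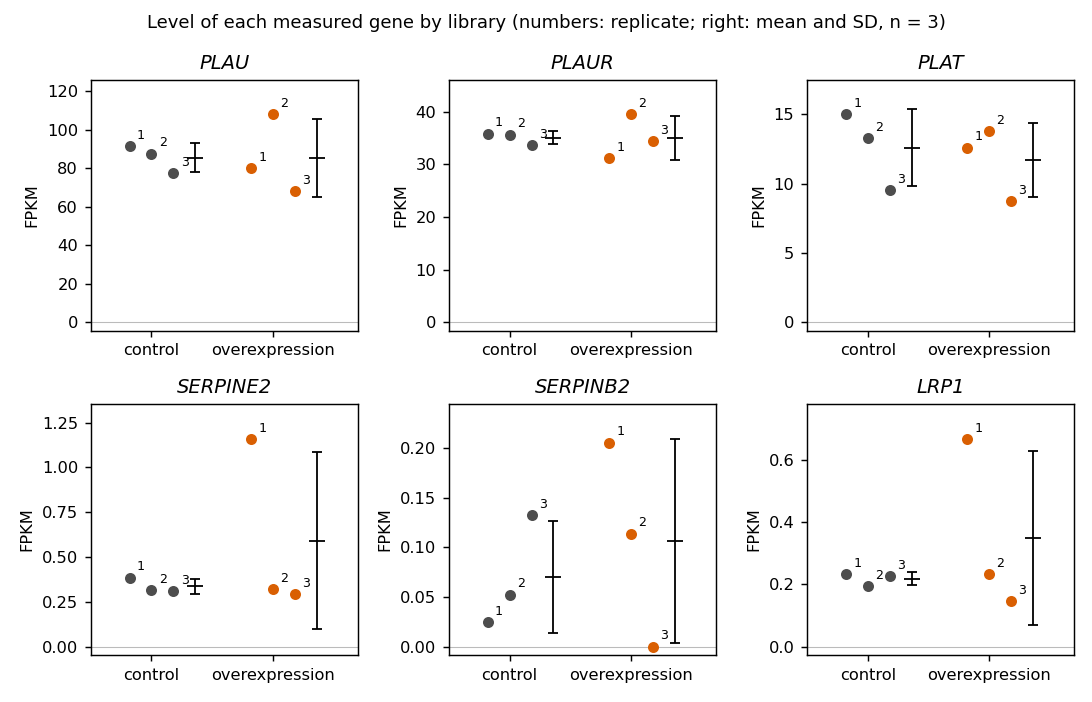
FPKM of the 6 measured genes in each library, grey for control and orange for overexpression, with replicate numbers; the bar to the right of each group is its mean and SD (n = 3). PLAU, PLAUR and PLAT overlap between groups, while SERPINE2 at 1.16 and LRP1 at 0.669 FPKM stand out in overexpression 1.

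The order of levels between genes depended on the gene length behind the FPKM. The deposited FPKM was the count divided by a length that was fixed for each gene, so it carries no information on the mix of transcripts. For PLAUR this length was 4459 nt, where the longest of its 15 transcripts in GENCODE 29 has 1610 nt. For PLAU it was 2949 nt against 2658, and for PLAT 7775 against 3462. Only 7 of the 9 PLAT transcripts had a length in GENCODE 29. For SERPINB2, with 1 transcript, it was 2772 nt against 2155, so the lengths differ from GENCODE 29 there too. Rescaled to the longest transcript, the mean over 6 libraries was 94.8 for PLAU, 97.1 for PLAUR and 27.3 for PLAT. On that scale PLAU was 0.793 to 1.09 times PLAUR in single libraries, while on the deposited scale it was 1.98 to 2.73 times PLAUR. The ranges of PLAU and PLAUR overlapped only on the rescaled values. PLAT stood below both in every library and above the scarce genes on both scales. Lengths were calibrated on 327 genes with 1 transcript each, of which at least 62.4% in each library lay within 2% of the median factor. Ratios between groups are the same on both scales.

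**Figure D2:**
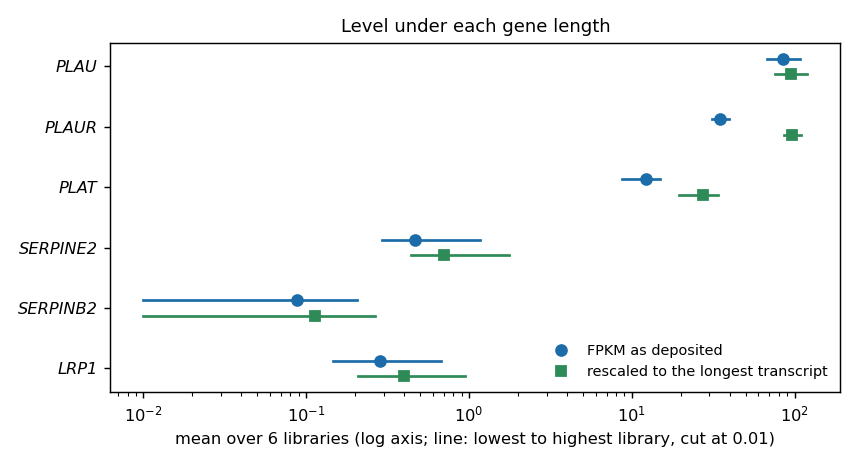
Mean level of each gene over the 6 libraries on a log axis, as deposited (circles, FPKM) and rescaled to the longest annotated transcript (squares); lines run from the lowest to the highest library and end at 0.01 for SERPINB2, which was listed at 0 in overexpression 3. PLAUR moves from 35.1 to 97.1 and then overlaps PLAU, while the 3 scarce genes stay below 2.

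SERPINE2 (ENSG00000135919, chromosome 2, 223975045 to 224039290) encodes protease nexin-1, which inhibits thrombin and both plasminogen activators. It had 0.385, 0.316 and 0.311 FPKM in control, and 1.16, 0.323 and 0.291 in overexpressing libraries. Overexpression 1 was 3.57 times the mean of the other 5, and the other overexpressing libraries lay at the level of the controls. Means were 0.337 ± 0.0417 and 0.591 ± 0.493 FPKM (SD, n = 3 each). By edgeR the log2 fold change was 0.74 with an SE of 0.50 (unadjusted p 0.182), and -0.15 (SE 0.20, p 0.472) without overexpression 1.

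LRP1 (ENSG00000123384, chromosome 12, 57128483 to 57213361) had 0.234, 0.194 and 0.226 FPKM in control, and 0.669, 0.232 and 0.146 in overexpressing libraries. Overexpression 1 was again highest, 3.24 times the mean of the other 5, and overexpression 3 was lowest of all. Means were 0.218 ± 0.0212 and 0.349 ± 0.280 FPKM (SD, n = 3 each), a log2 fold change of 0.60 (SE 0.49, unadjusted p 0.258 by edgeR). Without overexpression 1 the value was -0.25 (SE 0.22, p 0.287). The sum of fibroblast markers was 12.9 times the mean of the other 5 in the same library, and its part in the SERPINE2 and LRP1 values was not tested. In bulk RNA, more cells of a type and more RNA per cell cannot be told apart.

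SERPINB2 (ENSG00000197632, chromosome 18, 63871692 to 63903879), plasminogen activator inhibitor 2, was the scarcest. It had 0.0247, 0.0522 and 0.133 FPKM in control and 0.205, 0.114 and 0 in overexpressing libraries, from deposited counts of 4, 10, 30, 45, 20 and 0. The highest and the lowest library were both overexpressing ones, and overexpression 1 was 3.17 times the mean of the other 5. By edgeR the log2 fold change was 0.46 with an SE of 1.18 (unadjusted p 0.707), or -0.47 (SE 1.32) without overexpression 1. The 95% interval of the fold ran from 0.203 to 9.34, so it held both a rise and a fall of several-fold. On the deposited scale the ranges of SERPINE2 and LRP1 overlapped, and so did those of LRP1 and SERPINB2. SERPINE2 was above SERPINB2 in every library.

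**Figure D3:**
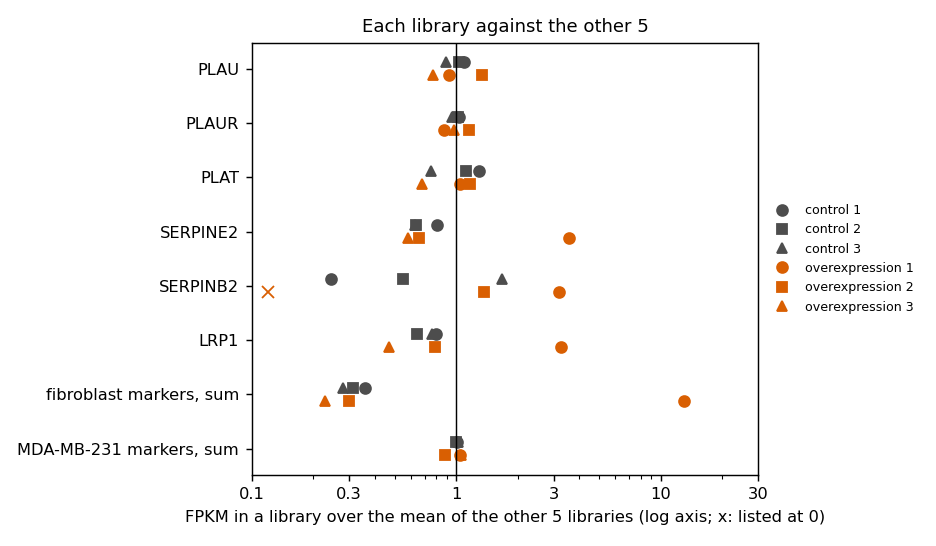
FPKM of each gene, and of 2 summed marker lists, in each library divided by the mean of the other 5 libraries, on a log axis; a cross marks a value listed at 0. Overexpression 1 lies at 3.57 for SERPINE2, 3.24 for LRP1, 3.17 for SERPINB2 and 12.9 for the fibroblast markers, and at 0.923 for PLAU.

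Among the 6 genes, 0 had an adjusted p under 0.05 by edgeR, where 0% of the 15951 tested genes did, and the smallest adjusted p was 0.996. An unadjusted p under 0.05 was reached by 0 of the 6, against 3.83% of tested genes. In 0 of the 6 the FPKM of the groups did not overlap, against 8.22%. DESeq2 called 0 of the 6 and 12 of all genes. The log2 fold change was negative for 3 genes and positive for 3, with a median of 0.21 beside 0.02 for all tested genes. Without overexpression 1 the medians were -0.18 and 0.01, with 0 of the 6 at an unadjusted p under 0.05, against 2.89% of tested genes. Overexpression 1 was the highest library for 3 of the 6, against 30.9% of tested genes. It was the highest and over 2 times the mean of the other 5 for 3 of the 6, which was so for 10.3% of tested genes.

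**Figure D4:**
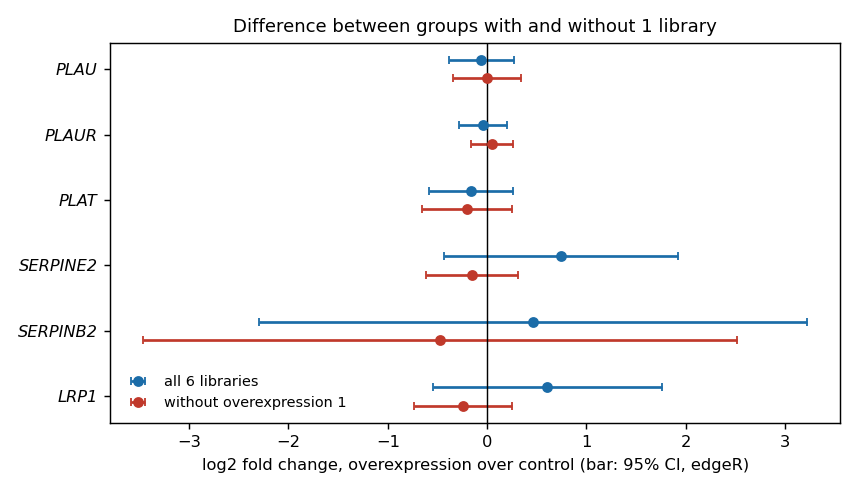
Log2 fold change of overexpression over control for the 6 genes with its 95% interval (edgeR), with all 6 libraries (blue) and without overexpression 1 (red). Every interval spans 0, and leaving out overexpression 1 moves SERPINE2 from 0.74 to -0.15 and LRP1 from 0.60 to -0.25.

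Genes around these 6 were grouped into 8 lists from textbook knowledge, holding 99 genes. Of these, 81 were in the table and 69 could be tested, 24 with a positive and 45 with a negative log2 fold change. The positive share was 34.8%, against 54.8% of all tested genes, and 26.1% against 47.4% with upper-quartile scaling. The shares over all tested genes are the background for the sign counts of the single lists. By edgeR 0 passed, where 0% of all genes did, and 1 had an unadjusted p under 0.05, against 3.83%. DESeq2 called 0, with 2 at an unadjusted p under 0.05. The FPKM of the groups did not overlap for 4 of the 69, against 8.22% of all tested genes. Their median was -0.05, the same without overexpression 1.

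Plasminogen itself (PLG, named after its values were seen) was listed at 0 in 5 libraries and had 2 deposited counts in overexpression 1. Levels of its cell-surface receptors ranged widely, from a mean of 1.43 FPKM for PLGRKT, a membrane protein that binds plasminogen, to 2787 for ENO1. Of the 5 tested genes of that list, 2 were positive and 3 negative, with a median of -0.01. ENO1, a glycolytic enzyme that binds plasminogen at the cell surface, had 2694 to 2933 FPKM and a log2 fold change of -0.08 (SE 0.13). S100A10, which holds plasminogen at the membrane with annexin A2, had 673 to 688 FPKM in control and 689 to 791 in overexpressing libraries. The groups did not overlap, by a margin of under 1 FPKM, and its log2 fold change of 0.09 (SE 0.10) did not pass.

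Proteases that activate pro-urokinase and their inhibitors had 1 positive and 6 negative of 7 tested, with a median of -0.11. CTSL, the lysosomal protease cathepsin L, had a log2 fold change of -0.12 (SE 0.14), and F12, coagulation factor XII, of -0.11 (SE 0.18). All 4 tested soluble inhibitors were negative, with a median of -0.22, or -0.36 without overexpression 1. SERPINF2, the plasmin inhibitor, had 2.71 to 2.94 FPKM in control and 2.43 to 2.64 in overexpressing libraries, which did not overlap, with a log2 fold change of -0.23 (SE 0.16, unadjusted p 0.187). The single gene of the 8 lists with an unadjusted p under 0.05 was SERPINA5, the protein C inhibitor, which also inhibits urokinase. It had 0.392, 0.362 and 0.392 FPKM in control and 0.311, 0.263 and 0.196 in overexpressing libraries, from 59 to 123 counts. Its groups did not overlap, and edgeR gave a log2 fold change of -0.63 with an SE of 0.23 (unadjusted p 0.0283, adjusted p 0.994). SERPINA5 was named after its values were seen.

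Of the other clade B serpins, 3 of 5 were positive, or 1 of 5 with upper-quartile scaling, with a median of 0.03, or -0.06 without overexpression 1. SERPINB9, the granzyme B inhibitor, had 2.36 to 2.53 FPKM in control and 1.89 to 2.29 in overexpressing libraries, a log2 fold change of -0.24 (SE 0.13, unadjusted p 0.111 by edgeR). SERPINB6 had 13.7 to 16.4 FPKM and a log2 fold change of 0.03 (SE 0.07). Receptors related to LRP1 and genes of the uptake of urokinase complexes had 4 positive and 7 negative of 11, or 3 positive with upper-quartile scaling, with a median of -0.06. In that list SORT1, a sorting receptor, stood at -0.12 (SE 0.12).

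Among 13 tested partners of the urokinase receptor, 4 were positive and 9 negative, or 3 positive with upper-quartile scaling, and the median was -0.04. CAV1, the caveolar coat protein, had 50.5 FPKM in overexpression 1 and 18.9 to 24.3 in the other libraries, and its log2 fold change went from 0.45 to -0.05 without that library. ITGB1, the integrin beta-1 chain, went from 0.41 to -0.0052 in the same way. Of 9 tested substrates of urokinase and plasmin, 5 had a positive value. Their median was 0.12, and -0.10 once overexpression 1 was left out. FN1, the fibronectin gene, had 6.65 FPKM in overexpression 1 and 1.52 to 1.85 elsewhere, and TGFB1, whose latent product plasmin can release, had a log2 fold change of -0.14 (SE 0.08). Transcription factors known to act at the PLAU enhancer had 5 positive and 10 negative of 15, or 3 positive with upper-quartile scaling, with a median of -0.03. JUN and JUND, which are AP-1 subunits, stood at -0.06 (SE 0.09) and -0.05 (SE 0.09).

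**Figure D5:**
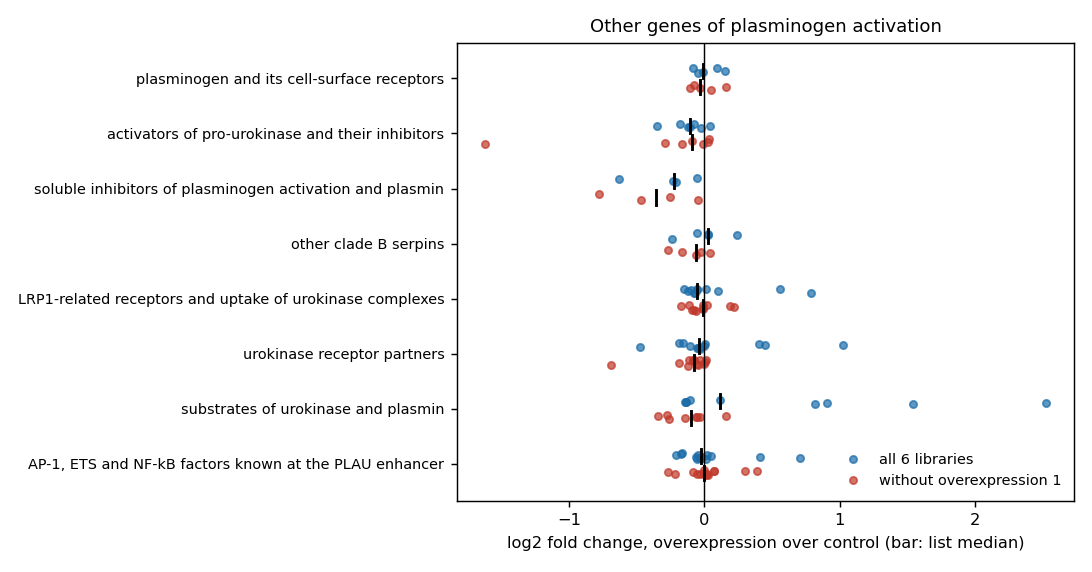
Log2 fold change of overexpression over control for the tested genes of the 8 lists, with all 6 libraries (blue) and without overexpression 1 (red); black bars are list medians and vertical scatter within a row has no meaning. The median of the substrate list moves from 0.12 to -0.10, and that of the soluble inhibitors from -0.22 to -0.36.

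By Pearson's r of log2(FPKM + 1) over the 6 libraries, the genes most like PLAU were SDC1 (0.996), COLGALT1 (0.996) and ZC3H12A (0.995). Those most like PLAUR were GTPBP6 (0.992), KCTD5 (0.982) and PRPF6 (0.978). The search covered 1926 genes with a mean of at least 10 FPKM and an SD of at least 0.1 on that scale. An r above 0.9 was found for 156 of them with PLAU and for 35 with PLAUR. All points of such a correlation come from the same libraries and share their depth, so these values only describe the pattern. Between PLAU and PLAUR r was 0.75, between PLAU and PLAT 0.83, and between PLAUR and PLAT 0.40 (6 libraries each).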

How the data were processed

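The authors deposited 1 table with an expected count and an FPKM value per gene and library. Per the submitters' processing notes the genome build was hg38 and the tools were HISAT2 2.0.4, StringTie 1.3.4d, edgeR and cutadapt 1.9. Strand setting and annotation release are not given in the sources used here. The deposited FPKM are scaled by the authors to gene length and library. The deposited expected counts are whole numbers, and how they were derived is not given in the sources used here. Count values of 4 (4533 times) are more frequent than 3 (2955) or 5 (2620), so they were not taken for tallies of fragments, and no counting intervals are given.

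Genes were tested with edgeR 4.0.16 in R 4.3.3 (quasi-likelihood, TMM, filterByExpr with a minimum count of 10, 2-sided, group as the only term). P-values were adjusted by Benjamini-Hochberg over all tested genes, with a threshold of 0.05. The SE is the log2 fold change over the root of F. The fit was also run on 3 simulated data sets with 200 changed genes each. No library was made to stand apart in them, and their outcome is not reported here. Alternatives used limma 3.58.1 and DESeq2 1.42.0. The 7 genes and the lists were chosen with earlier results of these data known. Named list genes are those that pass, otherwise the 2 with the smallest p among those with a mean of at least 1 FPKM; some genes that this rule names are not reported here. For PLAU and PLAUR, the 3 genes with the highest r are named. Upstream sequences come from RefSeq (GRCh38.p14), and a stretch in annotated exons was kept to 30 bases. With 3 libraries a group, no outlier test was run.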

Additional observations from a re-analysis of the deposited data

How the results depend on the processing

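Of 18 alternatives, 12 were changes of scaling, filter, test or counting and 6 left out 1 library each. The number of genes called was 0 with all 6 libraries, 12 with DESeq2 and 0 to 4 when a library was left out, and 0 of the 6 members and 0 list genes were called in any. With the replicate number as a block, 0 genes were called. Same-numbered libraries deviated together with r of -0.03, 0.04 and 0.07, so the numbers were not taken to pair them. Such r over all tested genes cannot exclude pairing, and TMM factors were lowest in both replicate 3 libraries (0.963 and 0.932). For PLAT the log2 fold change with the block was -0.15 (unadjusted p 0.145 by edgeR, against 0.406 without the block). With library quality weights (limma voom), the log2 fold change was 0.027 for PLAU and -0.19 for SERPINB2, the reverse of the sign with all libraries weighted equally; the cause was not tested. Leaving out 1 library gave ranges of -0.21 to 0.030 for PLAU, -0.092 to 0.047 for PLAUR, -0.31 to -0.013 for PLAT, -0.15 to 1.06 for SERPINE2, -0.47 to 1.35 for SERPINB2 and -0.25 to 0.94 for LRP1. Among these 6 omissions, PLAUR, SERPINE2, SERPINB2 and LRP1 changed sign only without overexpression 1. PLAU changed sign without overexpression 3 and stood at 2.0e-05 (SE 0.15) without overexpression 1. PLAT kept a negative sign in all 18. SERPINB2 was filtered out when counts were divided by 4, and SERPINE2, SERPINB2 and LRP1 by a mean of at least 1 FPKM, which limma on FPKM also used. Rescaling to the longest transcript was chosen after seeing the data.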

Other observations

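The values below were chosen after they were seen and are descriptions without a test. LRPAP1, the chaperone that keeps LRP1 from binding ligands on its way to the cell surface, had 15.2 to 18.5 FPKM, while LRP1 itself had 0.146 to 0.669. The ratio of LRPAP1 to LRP1 in the deposited FPKM was 68.9 to 104 in 5 libraries. It was 23.7 in overexpression 1, where LRPAP1 had 15.9 FPKM and LRP1 0.669. Its size depends on the gene lengths used, and for LRP1 the length was 21073 nt against 14897 nt for the longest transcript. On chromosome 18, where SERPINB2 lies, SERPINB8 had 0.696 to 1.07 FPKM and SERPINB7 0.0353 to 0.106.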
